A study of Homo sapiens with 6 samples.

Results

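The integrated stress response is read here from 10 genes, which encode the 4 kinases that phosphorylate the translation factor eIF2alpha (EIF2AK1, EIF2AK2, EIF2AK3 and EIF2AK4), the transcription factors ATF4, ATF5 and DDIT3, the pseudokinase TRIB3, and the 2 regulatory subunits of the eIF2alpha phosphatase (PPP1R15A and PPP1R15B). They were taken by gene symbol from the 19727 genes of the expression table, and all 10 passed the filter for low expression, a mean of 1 FPKM, which 12322 genes passed. FPKM is the number of sequenced fragments scaled to transcript length and to library size. The genes were selected on their role, with the OE against NC fold changes in these same FPKM values known, foremost those of TRIB3, DDIT3, PPP1R15A and ATF4. The differences of the 10 genes are therefore given as a description, and the calls of the fit beside them are no independent evidence.

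All libraries were made from DU145, an established human cell line derived from prostate cancer. The NC libraries carry the genotype label normal, and the OE libraries the label circCSPP1 overexpression, with 3 libraries in each group. Per the study's methods both groups were stable lines made with lentivirus, carrying either the NC vector or circCSPP1, and selected with puromycin. The study names a single line for each group, so the circular RNA and other differences between these lines cannot be told apart. Nothing in the labels says that the 3 libraries of a group were separate cultures, so the spread between them may be technical.

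The 4 kinases sense different stresses. EIF2AK1 (HRI) responds to lack of heme and to mitochondrial stress, EIF2AK2 (PKR) to double-stranded RNA, EIF2AK3 (PERK) to unfolded protein in the endoplasmic reticulum, and EIF2AK4 (GCN2) to uncharged tRNA. Phosphorylated eIF2alpha blocks its exchange factor eIF2B, which lowers translation in general and raises that of ATF4 and a few other mRNAs with upstream start codons. ATF4 then switches on, among others, DDIT3 (CHOP), TRIB3 and PPP1R15A (GADD34), and the last of these recruits the phosphatase that ends the response. Phosphorylation and translation are not seen by RNA-seq, which measures only the amount of each transcript.

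The promoters of the members were searched for 3 motifs. C/EBP-ATF composite and cyclic AMP response elements were included because the members that moved most are known targets of factors binding such sites. The interferon-stimulated response element bears on EIF2AK2, an interferon-stimulated gene. RefSeq start sites on GRCh38.p14 were found for 9 of the 10 genes, in 15 windows from 250 bases before to 50 bases after a start; EIF2AK1 is named only. The C/EBP-ATF composite element was searched as TGATGNAA, the cyclic AMP response element as TGACGTCA and the interferon-stimulated response element as GAAA, any 2 bases and GAAA again, all on both strands. In the sequences the match is in capitals, and the gene strand is shown.
PPP1R15A, cyclic AMP response element from 58 to 51 bases before the start (chr19:48872354-48872379, plus strand): ctctcttcgTGACGTCAgcacgccgg
PPP1R15B, composite element from 227 to 220 bases before the start (chr1:204412028-204412053, minus strand): cgccccggcTGATGCAAcctcacgct
EIF2AK2, interferon element from 6 bases before the start to base 4 of the transcript (chr2:37156969-37156994, minus strand): tccaagggGAAAACGAAActgagaac
ATF5, interferon element from 91 to 82 bases before the start (chr19:49928807-49928832, plus strand): caagcaagGAAAGGGAAAgagaaatg

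The composite element was held by 1270 of 35116 promoter windows (3.62%), the cyclic AMP element by 649 (1.85%) and the interferon element by 1255 (3.57%). Of the 15 windows of the members, each of the first 2 motifs was found in 1 window. The interferon element was found in 2 windows, which belong to EIF2AK2 and ATF5. ATF5 held 2 further interferon matches, 1 of which overlapped the match shown. The windows of TRIB3, DDIT3 and ATF4 held none of the 3 motifs, which says only that these letters do not occur between these bases. The 5′ UTR was also searched for ATG triplets. In the GENCODE release 29 transcript used for each gene, ATF4 had 7 upstream ATG triplets, EIF2AK3 had 5, TRIB3 had 3, ATF5, DDIT3, PPP1R15A and PPP1R15B had 2 each, EIF2AK2 had 1, and EIF2AK1 and EIF2AK4 had 0. At least 1 was present in 8 of the 10 members and in 52.6% of 12247 tested genes with a complete coding transcript. The median 5′ UTR was 312.5 nt long in the members and 200 nt in those genes, and the part of this length in the counts was not tested.

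The depth read from the lowest values was 28600000 to 36400000 fragments per library and overlapped between the groups. CSPP1, the host gene of the overexpressed circle, measured 9.54 ± 0.493 FPKM in NC and 19.5 ± 4.44 FPKM in OE (SD, n = 3 each), a value that does not separate the linear transcript, the circle and the vector. All 5 epithelial markers were detected in every library, and their summed level was 2271 to 2361 FPKM in NC and 1046 to 1278 FPKM in OE. The prostate genes KLK2, KLK3 and FOLH1 were at 0 in every library. Of the markers of other cell types, 4 of 5 fibroblast, 3 of 5 immune and 3 of 3 endothelial genes stayed under 1 FPKM in every library. The exceptions were CD68, at 35.8 to 50.4 FPKM over the 6 libraries, CD14, at 0.80 to 2.42 FPKM, and COL1A1, at 2.60 to 4.06 FPKM in NC and 0.99 to 1.36 FPKM in OE. Their part in the results below was not tested.

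OE replicate 1 stood apart from OE replicates 2 and 3 in a way that followed the GC content of transcripts. On the log2(FPKM + 1) scale its median departure from the mean of the other two was -0.54 in the 1705 tested genes with under 40% GC, and 0.34 in the 2128 genes with over 60% GC. In NC replicate 1, measured the same way, these medians were -0.02 and 0.01. The 10 members spanned this range, from 38.7% GC in EIF2AK2 to 60.9% in TRIB3, and EIF2AK2 departed most (-1.01). The departure was 0.33 in TRIB3, -0.40 in PPP1R15B and 0.01 in ATF4. In TRIB3, NC replicate 1 also stood above the mean of NC replicates 2 and 3, by 0.44. The differences of the members are therefore also given without OE replicate 1 and after a loess correction of every library for transcript GC content and length, called the GC correction below.

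**Figure D1:**
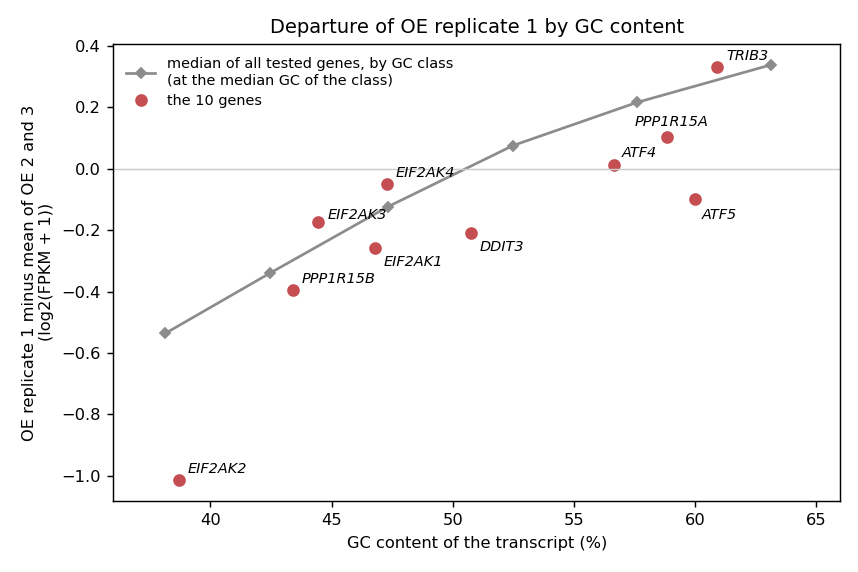
Departure of OE replicate 1 from the mean of OE replicates 2 and 3 on the log2(FPKM + 1) scale (vertical axis) against transcript GC content in percent (horizontal axis), for the 10 genes (red points) and for the median of all tested genes in 6 classes of GC content (grey line). The median climbed from -0.54 to 0.34 with GC content, and EIF2AK2 lay lowest at -1.01.

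Across the 10 genes, 4 were higher in OE than in NC by limma with Benjamini-Hochberg adjustment over all tested genes (adjusted p under 0.05), namely TRIB3, PPP1R15A, DDIT3 and ATF4, and 0 were lower. Over all tested genes 11.4% were called, 4.69% higher and 6.66% lower. The libraries of the groups did not overlap in 7 of the 10 genes, 5 higher and 2 lower in OE. Over all tested genes 36.4% did not overlap, 16% higher and 20.5% lower. The median log2 difference of the 10 genes was 0.25 and that of all tested genes -0.03. Since the genes were chosen with this contrast in view, nothing is read from these counts. Without OE replicate 1 the calls numbered 7, with ATF5 and PPP1R15B higher and EIF2AK1 lower in addition, when 28.5% of all tested genes were called (13.2% higher and 15.3% lower). After the GC correction they numbered 6, with PPP1R15B and EIF2AK1 added, beside 28.6% of the 12305 genes tested there (14.8% higher and 13.8% lower). They numbered 3, without ATF4, when NC replicate 1, 2 or 3 or OE replicate 3 was left out. In those fits 300, 317, 407 and 450 of the 12322 tested genes were called, against 1399 from all 6 libraries.

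**Figure D2:**
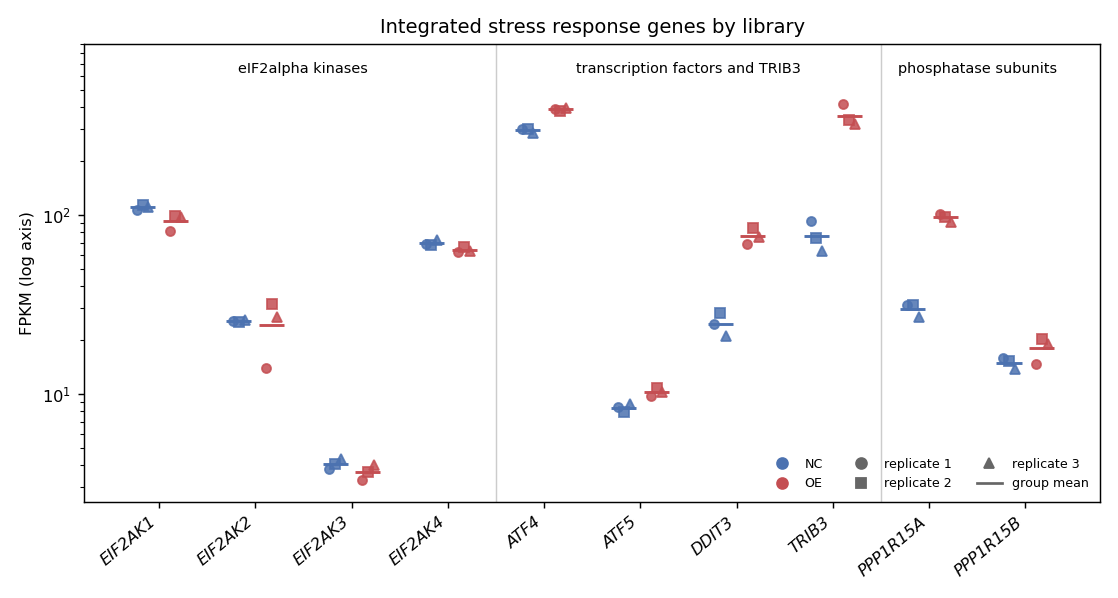
FPKM of the 10 genes on a log axis in the 3 NC (blue) and 3 OE (red) libraries; marker shapes are replicates and bars are group means. TRIB3, DDIT3 and PPP1R15A show the widest gaps between groups, the kinases lie close together between groups, and EIF2AK2 has 1 low OE library at 14.0 FPKM.

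None of the 4 kinase genes was called by limma, and 1 of them, EIF2AK1, had an unadjusted p under 0.05 (0.028). Of all 12322 tested genes, 3477 had an unadjusted p under 0.05. EIF2AK1 (chromosome 7, 6022244 to 6059230, minus strand, GRCh38) was the most abundant kinase transcript, at 107, 113 and 111 FPKM in NC replicates 1 to 3 and 81.6, 98.1 and 97.5 FPKM in OE replicates 1 to 3. The OE libraries all lay below the NC libraries. Its log2 difference was -0.26 (standard error 0.095, 95% interval -0.48 to -0.04). It was -0.17 without OE replicate 1 (adjusted p = 0.049 from limma) and -0.22 after the GC correction (adjusted p = 0.025 from limma), and the adjusted p ran from 0.025 to 0.33 over 17 alternatives. The EIF2AK1 transcript shares 532 nt of exon with AIMP2 on the other strand, which measured 34.6 to 43.1 FPKM in NC and 54.4 to 60.3 FPKM in OE, and strand use in the counting is not given in the sources used here.

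EIF2AK4 (chromosome 15, 39934146 to 40035591, plus strand) was next, at 68.3, 67.7 and 72 FPKM in NC and 62.2, 65.98 and 62.95 FPKM in OE. The groups did not overlap, though the closest libraries differed by only 1.03-fold. The log2 difference was -0.12 (standard error 0.077, 95% interval -0.30 to 0.06). It was -0.10 without OE replicate 1 and -0.08 after the GC correction.

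EIF2AK2 (chromosome 2, 37099210 to 37157065, minus strand) held the tightest NC values of the set, 25.6, 25.03 and 26.01 FPKM, and the widest OE values, 14.0, 31.9 and 26.8 FPKM. OE replicate 1 was below every NC library, and OE replicates 2 and 3 were above every one. The difference of -0.15 (standard error 0.27, 95% interval -0.77 to 0.47) rested on that library and turned to 0.19 without it (standard error 0.086, 95% interval -0.02 to 0.40). After the GC correction it was -0.09 (95% interval -0.45 to 0.27). This kinase is itself an interferon-stimulated gene, and its interferon element is the one shown above.

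EIF2AK3 (chromosome 2, 88556741 to 88627576, minus strand) was the scarcest of the 10 transcripts, at 3.80, 4.03 and 4.30 FPKM in NC and 3.28, 3.67 and 4.0 FPKM in OE. The groups overlapped, and the log2 difference was -0.12 (standard error 0.11, 95% interval -0.38 to 0.14). It was -0.06 without OE replicate 1, -0.08 after the GC correction and -0.0077 with quantile normalization. From the depth and a transcript of 4646 nt these values correspond to between 486 and 727 fragments per library, so the lowest carries a counting error of 4.54%, and intervals cover the spread between these libraries only. Neither EIF2AK3 nor EIF2AK4 was called under any alternative run, which for EIF2AK3 left out the filter at a mean of 5 FPKM.

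The makeup of the kinase transcripts was also compared. EIF2AK1 made up 52.7% ± 1.08 of the summed FPKM of the 4 kinases in NC and 50.3% ± 0.979 in OE (SD, n = 3), and the groups did not overlap (51.9% to 53.96% against 49.2% to 50.99%). EIF2AK4 made up 33.1% ± 0.830 and 34.9% ± 3.25. EIF2AK3 held 1.93% ± 0.0828 in NC and 1.99% ± 0.133 in OE, within the spread of either group. The share of EIF2AK2 was 12.2% ± 0.299 in NC and 12.9% ± 3.77 in OE, and OE replicate 1 alone gave 8.68%. The summed FPKM of the kinases was 205 to 213 in NC and 161 to 200 in OE.

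ATF4 (chromosome 22, 39519695 to 39522685, plus strand), the central transcription factor of the response, was the most abundant of the 10 genes in both groups. It measured 301, 302 and 286 FPKM in NC and 392, 380 and 396 FPKM in OE, 1.32-fold higher on the means. The lowest OE library was 1.26-fold above the highest NC library. The log2 difference was 0.40 (standard error 0.064, adjusted p = 0.011 from limma), 0.39 without OE replicate 1 and 0.41 after the GC correction. It stayed between 0.35 and 0.44 over 17 alternatives, with adjusted p from 0.0030 to 0.069. The adjusted p was 0.068, 0.066 and 0.069 without NC replicates 1, 2 and 3 and 0.062 without OE replicate 3. GENCODE annotates 4 pseudogenes of ATF4, whose fragments the counting could have shared with it.

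ATF5 (chromosome 19, 49928702 to 49933935, plus strand), a related factor that is likewise controlled through upstream start codons, was expressed at a far lower level, 8.46, 7.91 and 8.76 FPKM in NC and 9.74, 10.8 and 10.3 FPKM in OE. All OE libraries were above all NC libraries. The log2 difference of 0.26 (standard error 0.10, 95% interval 0.03 to 0.50) was not called, except without OE replicate 1 (0.30, adjusted p = 0.038 from limma). After the GC correction it was 0.28. Its transcript shares 258 nt of exon with NUP62 on the other strand, which measured 111 to 116 FPKM in NC and 104 to 117 FPKM in OE. ATF4 exceeded ATF5 by 35.4 ± 2.75-fold in NC and 38.0 ± 2.48-fold in OE (SD, n = 3), so their ratio within a library overlapped between the groups.

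DDIT3 encodes CHOP, a bZIP factor that drives the pro-apoptotic side of a lasting stress response. Its gene lies on chromosome 12 from 57516588 to 57521737 on the minus strand. It measured 24.4, 28.2 and 20.9 FPKM in NC and 69.0, 84.9 and 75.3 FPKM in OE, 3.12-fold higher on the means. The lowest OE library was 2.45-fold above the highest NC library. The log2 difference was 1.61 (standard error 0.13), 1.68 without OE replicate 1 and 1.62 after the GC correction, and lay between 1.502 and 1.71 over 17 alternatives, all of which called it. On the size of the rise it was 10th of the 12322 tested genes. Exons of MBD6 overlap the 940 nt transcript of DDIT3 from the other strand by 58 nt over all annotated MBD6 transcripts. Exons of MARS, which encodes methionyl-tRNA synthetase, also overlap it from the other strand. That overlap is 62 nt for the MARS transcript used here and 224 nt over all annotated MARS transcripts. MARS measured 423 to 461 FPKM in NC and 664 to 788 FPKM in OE, and how many of its fragments were counted for DDIT3 was not tested.

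TRIB3 (chromosome 20, 362835 to 397559, plus strand) encodes a pseudokinase that is induced by ATF4 and CHOP and binds and restrains ATF4. It showed the largest difference of the 10 genes and the third largest rise of all tested genes. The NC libraries gave 92.9, 74.0 and 62.5 FPKM, and the OE libraries 415, 339 and 321 FPKM, 4.69-fold higher on the means. Both groups were more variable than for most members, with a coefficient of variation of 20.03% in NC and 13.9% in OE, and still the lowest OE library was 3.46-fold above the highest NC library. The log2 difference was 2.22 (standard error 0.16), 2.11 without OE replicate 1 and 2.25 after the GC correction, from 2.09 to 2.37 over 17 alternatives, and TRIB3 was called in each.

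PPP1R15A (chromosome 19, 48872392 to 48876057, plus strand), the inducible phosphatase subunit GADD34, measured 31.5, 31.4 and 27.0 FPKM in NC and 101, 97.8 and 91.1 FPKM in OE, 3.23-fold higher on the means. The groups were 2.90-fold apart at their closest libraries. The log2 difference was 1.66 (standard error 0.096), 1.63 without OE replicate 1 and 1.68 after the GC correction, and ran from 1.59 to 1.70 over 17 alternatives, each of which called it. Its cyclic AMP response element is shown above.

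PPP1R15B (chromosome 1, 204403387 to 204411791, minus strand), the constitutive subunit CReP, measured 15.9, 15.2 and 13.8 FPKM in NC and 14.6, 20.1 and 19.0 FPKM in OE. OE replicate 1 fell among the NC libraries while OE replicates 2 and 3 were above them. The log2 difference was 0.24 (standard error 0.14, 95% interval -0.09 to 0.56) and was not called. Without OE replicate 1 it was 0.37 (adjusted p = 0.023 from limma), and after the GC correction 0.28 (adjusted p = 0.030 from limma), for a transcript with 43.4% GC.

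**Figure D3:**
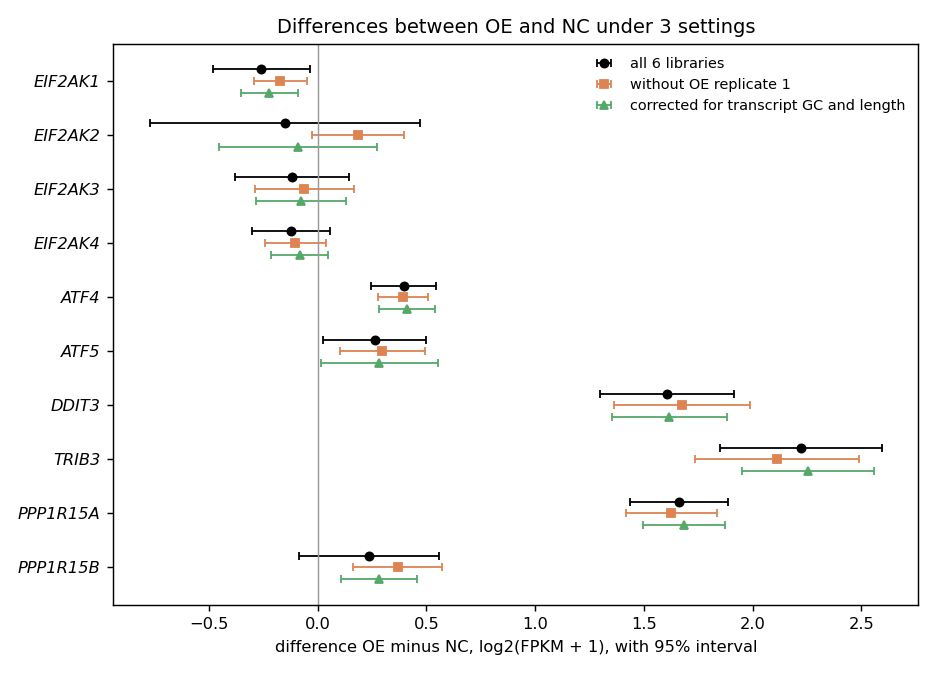
Difference between OE and NC on the log2(FPKM + 1) scale with its 95% interval from limma (horizontal axis) for the 10 genes, from all 6 libraries (black), without OE replicate 1 (orange) and after correction for transcript GC content and length (green). TRIB3 (2.22), PPP1R15A (1.66) and DDIT3 (1.61) lie far right of 0 in all 3 settings, while EIF2AK2 changes side.

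Ratios within a library do not depend on how libraries were scaled to each other. They still carry the departure of OE replicate 1, which on the log2(FPKM + 1) scale was 0.10 in PPP1R15A and -0.40 in PPP1R15B. The ratios were not corrected for GC content. PPP1R15A exceeded PPP1R15B by 2.002 ± 0.0581-fold in NC and 5.53 ± 1.22-fold in OE, with OE replicate 1 at 6.94 and OE replicates 2 and 3 at 4.86 and 4.797. The summed level of both subunits was 40.8 to 47.4 FPKM in NC and 110 to 118 FPKM in OE. TRIB3 stood to ATF4 as 0.258 ± 0.0463 in NC and 0.920 ± 0.127 in OE, and DDIT3 to ATF4 as 0.0826 ± 0.0102 and 0.196 ± 0.0241. These ratios did not overlap between the groups. PPP1R15A and DDIT3 kept close to each other instead, at a ratio of 1.23 ± 0.101 in NC and 1.28 ± 0.169 in OE (SD, n = 3 for each ratio).

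**Figure D4:**
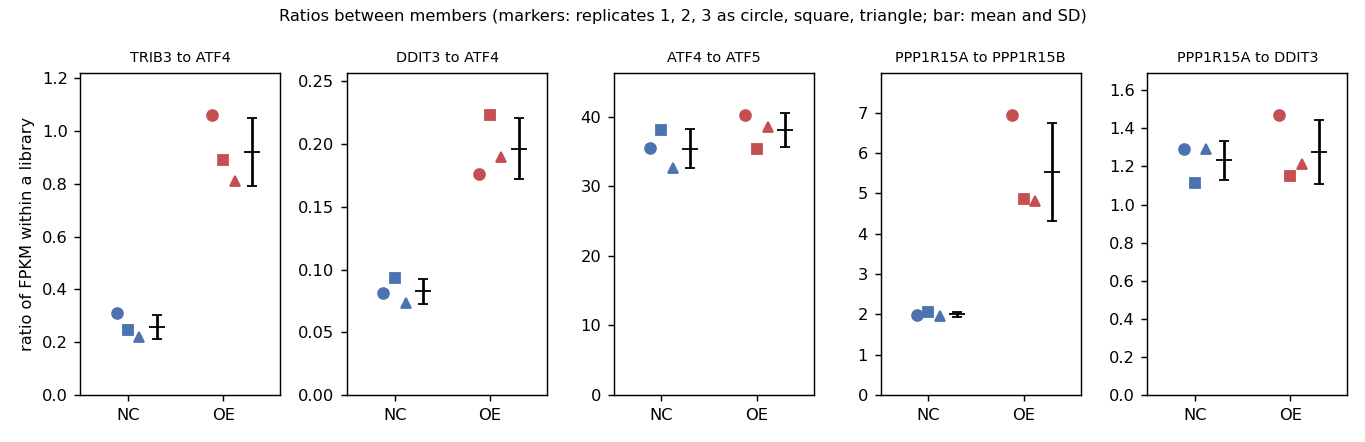
Ratios of FPKM between members within each library for NC (blue) and OE (red), with the mean and SD of 3 libraries as a black bar; all axes start at 0. The ratios of TRIB3 and DDIT3 to ATF4 and of PPP1R15A to PPP1R15B were higher in every OE library, and those of ATF4 to ATF5 and PPP1R15A to DDIT3 overlapped.

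The order of the levels, which FPKM allows because it is per transcript length, changed accordingly. In NC it ran from ATF4 through EIF2AK1, TRIB3, EIF2AK4, PPP1R15A, EIF2AK2, DDIT3, PPP1R15B and ATF5 to EIF2AK3. TRIB3 and EIF2AK4 overlapped there, as did EIF2AK2 and DDIT3. In OE the order was ATF4, TRIB3, PPP1R15A, EIF2AK1, DDIT3, EIF2AK4, EIF2AK2, PPP1R15B, ATF5 and EIF2AK3. ATF4 and TRIB3 overlapped in OE, and so did PPP1R15A with EIF2AK1, EIF2AK1 with DDIT3, and EIF2AK2 with PPP1R15B. In NC, ATF4 lay above 97.9% of the tested genes, and EIF2AK3 above 17.6%.

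Profiles most like those of 5 members were sought over the 6 libraries, as the smallest root mean square difference of log2(FPKM + 1) values after each gene's own mean was subtracted. For DDIT3 these were PPP1R15A (0.13), SQSTM1 (0.16) and PDE4B (0.17), and for PPP1R15A they were SQSTM1 (0.085), SPRY4 (0.10) and DDIT3 (0.13). TRIB3 was closest to STC2 (0.15), a secreted glycoprotein induced by stress, then to MT1E (0.17) and SPRY4 (0.24), where MT1E is uncertain because metallothionein genes are near-identical copies. ATF4 was closest to CYSTM1 (0.030), FAT4 (0.030) and ZNF592 (0.033). FAT4 lay near the filter, at 1.16 to 1.18 FPKM in NC and 1.81 to 1.88 FPKM in OE, where the log2(FPKM + 1) scale understates changes. The genes closest to EIF2AK2 were DDX52 (0.037), PPP4R2 (0.039) and CBX3 (0.043), and in all 3 OE replicate 1 was the lowest of the 6 libraries, as it was for EIF2AK2.

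The other genes of the pathway were taken from lists written with earlier results of these data known, so their counts describe these libraries. None of the 8 subunits of eIF2 and eIF2B and none of the 3 catalytic subunits of protein phosphatase 1 was called by limma. In either list 0 had an unadjusted p under 0.05, which 3477 of the 12322 tested genes had. The largest log2 differences among the first were 0.36 for EIF2S2, 0.18 for EIF2B5, -0.17 for EIF2B4 and 0.09 for EIF2S3. EIF2S2, the beta subunit of eIF2, measured 82.8, 84.1 and 81.0 FPKM in NC and 80.9, 129 and 116 FPKM in OE. Without OE replicate 1, EIF2S2 (0.56) and EIF2S3 (0.26) were called higher, where 13.2% of all tested genes were, and after the GC correction EIF2S2 (0.40) and EIF2B5 (0.20), where 14.8% were. The catalytic subunits PPP1CC, PPP1CB and PPP1CA differed by -0.19, -0.15 and 0.11. Both negative values rested on OE replicate 1, and without it they turned to 0.08 for PPP1CC and 0.12 for PPP1CB, while PPP1CA was at 0.06.

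Of 9 inputs and regulators of the kinases, 0 were called by limma and 3 had an unadjusted p under 0.05, beside 3477 of the 12322 tested genes. The largest differences were those of OMA1 (-0.58), the mitochondrial protease upstream of EIF2AK1, DNAJC3 (-0.31), an inhibitor of EIF2AK3 and EIF2AK2, PRKRA (-0.30), an activator of EIF2AK2, and DELE1 (0.26), the OMA1 substrate that activates EIF2AK1. OMA1 measured 11.7, 12.1 and 13.1 FPKM in NC and 5.49, 10.3 and 8.58 FPKM in OE, with every OE library below the NC libraries. OMA1 was called lower without OE replicate 1 (-0.35), without OE replicate 2 (-0.75) and after the GC correction (-0.51), which also called DELE1 higher (0.29). DNAJC3 was at -0.12 without OE replicate 1. GCN1, the partner of EIF2AK4, had a log2 difference of -0.03.

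Among 10 bZIP factors that pair or compete with ATF4, 5 rose and 0 fell (limma, adjusted p from 0.0019 to 0.045), beside 4.69% of all tested genes called higher and 6.66% called lower. The list median was 0.70. The 5 were NFE2L2 (1.09), MAFG (1.04), JUN (0.99), CEBPG (0.96), a preferred partner of ATF4, and ATF3 (0.77). CEBPG measured 24.1, 24.6 and 22.2 FPKM in NC and 39.3, 52.7 and 49.95 FPKM in OE. CEBPB had a difference of 0.33 with overlapping groups, and 0.12 without OE replicate 1. The calls again numbered 5, all higher, without OE replicate 1 and after the GC correction, where 13.2% and 14.8% of all tested genes were called higher. They numbered 3 when NC replicate 1, NC replicate 3, OE replicate 2 or OE replicate 3 was left out. Over all 12322 tested genes, 300, 407, 1160 and 450 were called there.

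ATF4 and CHOP targets gave the highest share of calls among the lists, 23 of 32 tested (71.9%), all higher, beside 11.4% of all tested genes. The list median was 0.73, against -0.03 over all tested genes. The 4 largest differences were those of STC2 (2.21), DDIT4 (1.31), an inhibitor of mTORC1, ASNS (1.29), asparagine synthetase, and SESN2 (1.25), a leucine-sensing inhibitor of mTORC1. ASNS measured 110, 111 and 97.4 FPKM in NC and 218, 307 and 260 FPKM in OE. The list was not uniform, and 9 tested genes were not called, among them VLDLR (0.02), BCL2L11 (-0.03) and ERO1A (-0.28). Without OE replicate 1, BCL2L11 was at 0.05 and ERO1A at -0.04. Of the targets linked to CHOP, TNFRSF10B, a death receptor, rose (0.58, adjusted p = 0.010 from limma), though it was not called without NC replicate 1 (adjusted p = 0.056 from limma) or NC replicate 3 (adjusted p = 0.051 from limma). BBC3 had a value of 0.58 with overlapping groups, and was called without OE replicate 2 (0.90, adjusted p = 0.044 from limma). The calls of the list numbered 25, all higher, without OE replicate 1 and after the GC correction. In these settings 13.2% and 14.8% of all tested genes were called higher. The list gave 14 calls without NC replicate 1 and 15 without NC replicate 2 or NC replicate 3. Over all 12322 tested genes, 300, 317 and 407 were called there.

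From all 6 libraries, the other arms of the unfolded protein response showed no call in the direction of TRIB3. Of 20 genes of the IRE1-XBP1 and ATF6 arms, 5 fell and 0 rose (limma, adjusted p from 0.0078 to 0.049), beside 6.66% of all tested genes called lower and 4.69% called higher. The list median was -0.26, and -0.15 without OE replicate 1. The 5 were MANF (-1.02), SEC24D (-0.73), PDIA4 (-0.46), PDIA6 (-0.41) and CALR (-0.39), which encode secretory pathway and endoplasmic reticulum proteins. MANF measured 52.5, 61.2 and 60.5 FPKM in NC and 21.8, 31.6 and 31.7 FPKM in OE. SDF2L1 (-0.52), HSP90B1 (-0.51) and HSPA5 (-0.23), the chaperone BiP that binds EIF2AK3, were not called from all 6 libraries. All 3 were called lower without OE replicate 1, at -0.66 for SDF2L1, -0.33 for HSP90B1 and -0.20 for HSPA5, and after the GC correction. HSPA5 was also called lower with quantile normalization, without a filter and without moderation of the variance, and HSP90B1 with OE replicate 2 left out and with the replicate block. The count was 10 without OE replicate 1, with ATF6 higher and 9 lower, where 28.5% of all tested genes were called. It was 11 after the GC correction, with ERN1 and ATF6 higher and 9 lower, where 28.6% of all tested genes were called. The count was 1, 0, 2 and 2 without NC replicate 1, NC replicate 2, NC replicate 3 and OE replicate 3. Over all 12322 tested genes, 300, 317, 407 and 450 were called there.

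Interferon-stimulated genes were read as the neighbours of EIF2AK2. Of 19 tested, 6 fell and 0 rose (limma, adjusted p from 0.0035 to 0.037), beside 6.66% of all tested genes called lower and 4.69% called higher. The list median was -0.24. The largest falls were those of OASL (-1.07), IFIT3 (-1.01), IFIT1 (-0.96) and IFIT2 (-0.84), genes of the antiviral response. IFIT1 measured 11.7, 11.6 and 12.1 FPKM in NC and 5.87, 5.80 and 5.08 FPKM in OE, so that OE replicate 1 lay with the other OE libraries, which was not the case for EIF2AK2. ISG15 (-0.12) was called lower under 1 of the 17 alternatives, without OE replicate 1 (-0.29), and was at 0.0013 without OE replicate 2. Without OE replicate 1 the calls numbered 10, with IRF7 (0.36) higher and 9 genes lower, where 28.5% of all tested genes were called. IRF7 was also called higher without OE replicate 2 and after the GC correction.

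**Figure D5:**
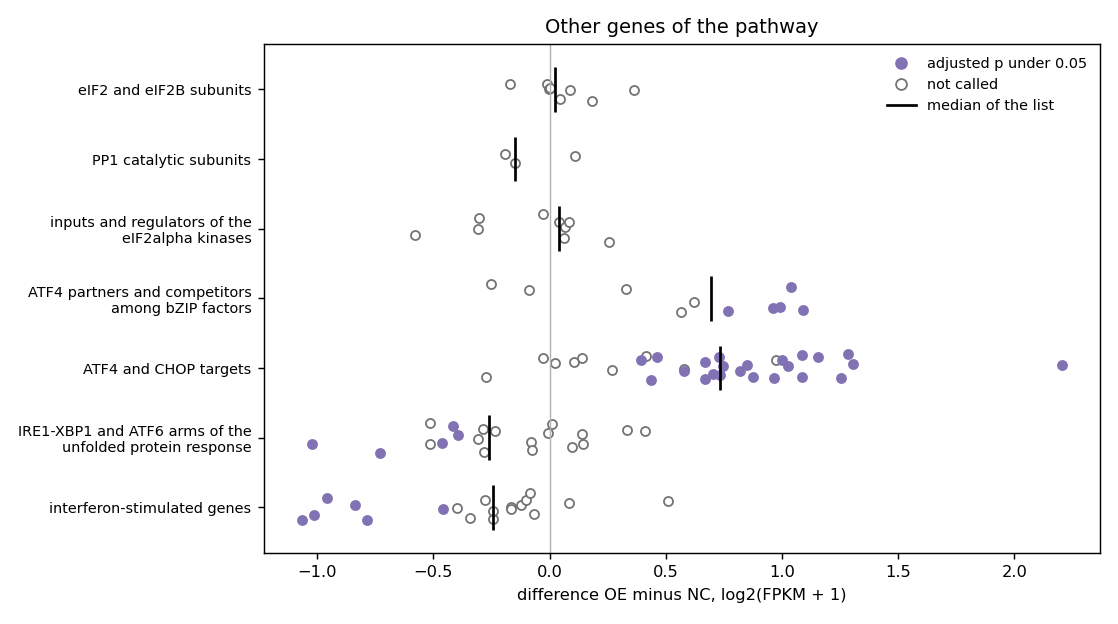
Differences between OE and NC on the log2(FPKM + 1) scale for the tested genes of 7 lists, 1 point a gene (filled where the adjusted p from limma was under 0.05), with the list median as a black bar. The filled points of the bZIP factors and of the ATF4 and CHOP targets lie right of 0, those of the other arms of the unfolded protein response and of the interferon-stimulated genes left of 0, and the first 3 lists have none.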

How the data were processed

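RNA isolated on poly-T beads was sequenced in paired-end mode in 6 DU145 libraries, and the authors deposited 1 table of FPKM values, rounded to 2 decimals. The submitters' processing notes name hg38; the aligner, counting program, annotation and strand use are not given in the sources used here. Because FPKM is no count, count models were not used. The column names gave group and replicate number, and 0 columns with values per sample were set aside. Values were taken to log2(FPKM + 1), a scale that understates changes of low genes, and the 12322 genes that averaged 1 FPKM or more were compared in limma 3.58.1 under R version 4.3.3 (two-sided, no covariate, eBayes with a trend, Benjamini-Hochberg adjustment). For a single gene in this design, exact permutation gives no two-sided p under 0.1.

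Coordinates, transcript length, GC content and 5′ UTRs came from 1 GENCODE release 29 transcript a gene on GRCh38 (principal isoform, then longest coding sequence). Depth was computed from low values of short genes (1 annotated transcript, below 800 nt), as the library size at which FPKM times length lay within 0.15 of whole multiples for 92.7% to 98.5% of 55 to 66 values per library. Members, lists and tests were chosen with earlier results of these data known. The text names all members, CSPP1, in each list the 4 largest absolute differences, lists' calls where 5 or fewer, and the 3 most alike profiles of 5 members; further genes are named because they overlap a member or were picked out once their values were known. The fit was first tested on simulated data with known changes. The alternatives were 2 other pseudocounts, 2 other filters, 3 other scalings, robust or no variance moderation, a replicate block, leaving out each library, and a loess correction for GC content and length, which was chosen after seeing the data. Plots were made in matplotlib 3.10.9. Values of some marker and list genes are not reported here.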

Additional observations from a re-analysis of the deposited data

How the results depend on the processing

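TRIB3, PPP1R15A and DDIT3 were called higher in OE under all 17 alternatives. The number of genes called over the whole table, 1399, was 834 without moderation of the variance, 3519 after the GC and length correction, and 300 to 3512 when 1 library was left out (lowest without NC replicate 1, highest without OE replicate 1); 1391 of the 3512 were among the 1399. Of the 10 members, 3 to 7 were called when 1 library was left out. EIF2AK2 turned from -0.15 to 0.19 without OE replicate 1, and was -0.38 without OE replicate 2. The list counts ran from 14 to 25 (23 from all libraries) for ATF4 and CHOP targets, 3 to 5 (5) for bZIP factors, 0 to 11 (5) for the other arms of the unfolded protein response, 5 to 10 (6) for interferon-stimulated genes, and 0 to 2 (0) for the eIF2 and eIF2B subunits and for the kinase inputs. Without moderation of the variance they were 15, 3 and 3 for the first 3 of these lists, and 3 for the bZIP factors with no filter and for the other arms with median-ratio scaling. The causes of these shifts were not tested. Whether the same replicate number paired libraries cannot be told, because all correlations of deviations were small. They were 0.073, 0.0065 and 0.057 for numbers 1, 2 and 3, and ran from -0.067 to 0.036 between unlike numbers. OE replicate 2 correlated best with NC replicate 3 (0.036). With the replicate block 923 genes and 4 members were called. Under the 3 other scalings the median over all genes moved by less than 0.1, to between -0.01 and 0.01. Depth limits EIF2AK3 and ATF5 most, with 470 to 770 fragments per library.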
